A study of Mus musculus with 6 samples.

Results

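The lysosomal cathepsins followed here are 10 mouse genes, Ctsa, Ctsb, Ctsc, Ctsd, Ctsf, Ctsh, Ctsk, Ctsl, Ctss and Ctsz, out of 18193 genes with a probe set on the Affymetrix Mouse Genome 430 2.0 array. They were chosen by symbol: every probe set that the array annotation assigns to just that gene was taken, which gave 22 probe sets, and each gene is represented by its brightest probe set, by mean log2 value. E0771-HML2 cells were compared with parental E0771 cells, on 3 arrays each. E0771 is a mammary tumour line of C57BL/6 mice; HML2 is a population of it that was grown in the mammary fat pad, recovered from lung metastases and passed through this selection again, and the parental cells were not selected. Both were unsorted populations grown in culture for 3 days with 10% fetal bovine serum and lysed in the dish, and 15 ug of total RNA was labelled per sample; ages of the host mice and the number of animals behind HML2 are not given in the labels. The labels call the 3 samples of each group biological replicates, and nothing ties an HML2 sample to a separate animal, so p-values reflect how much these cultures vary.

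Cathepsins are made as inactive precursors, tagged with mannose 6-phosphate in the Golgi, carried by receptors to endosomes and activated by cleavage in the acidic lysosome. Most are cysteine proteases (Ctsb, Ctsc, Ctsf, Ctsh, Ctsk, Ctsl, Ctss and Ctsz), Ctsd is an aspartic protease and Ctsa a serine carboxypeptidase. In tumours they are known both from the cancer cells and from macrophages, and secreted cathepsins can cleave matrix and cell surface proteins. Factors of the TFEB family, which control many lysosomal genes, bind short promoter elements built around the bases CACGTG.

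Ctsz was higher in HML2 cells by 1.26-fold, and it was the cathepsin that passed the test. Ctsl lay higher and Ctsd lower in HML2, but neither passed unless arrays were matched by replicate number or, for Ctsd, weighted by their quality. Ctsa and Ctsb gave nearly equal group means on their brightest probe sets, while a dimmer Ctsb probe set was called lower (log2 difference -1.24). The other 5 genes, Ctsc, Ctsf, Ctsh, Ctsk and Ctss, did not reach the signal needed for the test. Values are MAS5 signals, which are comparable between arrays for the same probe set but not between probe sets. A gene was tested with limma on log2(signal + 50) where its probe set averaged a signal of at least 100 over the 6 arrays, which 9361 genes did, and was called at a Benjamini-Hochberg adjusted p below 0.05.

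By this rule 1 of the 5 tested cathepsins was called higher in HML2 and 0 were called lower, and the same counts, 1 and 0, had an unadjusted p below 0.05. Over all tested genes 12.3% were called higher and 14.9% lower, 27.2% in all. The median log2 difference, HML2 minus parental, was 0.05 for the 5 cathepsins and -0.02 for all tested genes. With the replicate number as a block, 2 cathepsins were called higher (Ctsz and Ctsl) and 1 lower (Ctsd), where 17.8% of all tested genes were called higher and 19.6% lower, 37.4% in all. In cultures such as these, fewer cells that express a gene and less RNA per cell cannot be told apart.

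**Figure D1:**
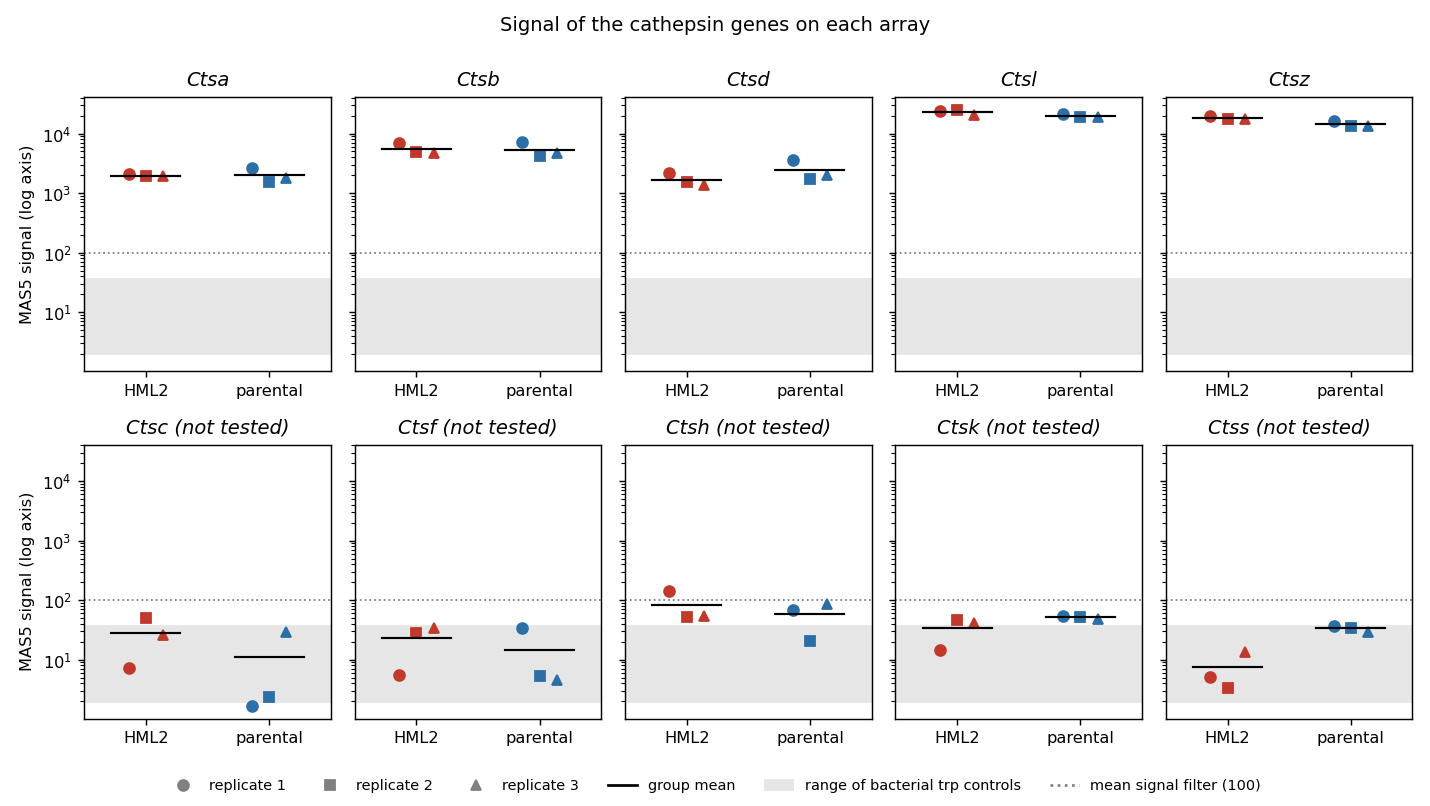
MAS5 signal (log axis) of the 10 cathepsin genes on each array, HML2 left and parental right, with marker shapes for replicates 1 to 3 and a bar at the group mean; the grey band spans the bacterial trp controls (1.97 to 36.2) and the dotted line marks the mean signal of 100 needed for testing. Ctsz has its 3 HML2 arrays above all parental arrays, and the 5 genes marked as not tested average below the dotted line.

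Promoter windows of Ctsz, Ctsl, Ctsd and Ctsa are shown first, since these tested cathepsins differ in the CACGTG element there. RefSeq promoter windows of 250 bases before to 50 after the start, on build GRCm38.p6, were matched for 8 of the 10 genes (all but Ctsb and Ctsh), in 9 windows because Ctsa has 2. The letters CACGTG, which read the same on both strands, stood in 4 of these 9 windows, against 2349 of all 32851 windows (7.15%). The 4 belonged to Ctsa, Ctsd, Ctsf and Ctsl. Below are the windows of Ctsz, called higher in HML2, of Ctsl and Ctsd, and the Ctsa window with the element, in gene direction with CACGTG in capitals. They lie at chr2:174438990-174439289 on the minus strand for Ctsz, chr13:64370471-64370770 on the minus strand for Ctsl, chr7:142387778-142388077 on the minus strand for Ctsd and chr2:164833523-164833822 on the plus strand for Ctsa.
Ctsz: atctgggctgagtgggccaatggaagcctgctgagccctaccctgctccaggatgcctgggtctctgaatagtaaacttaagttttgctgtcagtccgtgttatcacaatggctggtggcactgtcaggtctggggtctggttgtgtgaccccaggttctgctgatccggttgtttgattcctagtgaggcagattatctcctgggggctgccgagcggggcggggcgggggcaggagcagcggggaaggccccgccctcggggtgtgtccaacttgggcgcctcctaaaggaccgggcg
Ctsl: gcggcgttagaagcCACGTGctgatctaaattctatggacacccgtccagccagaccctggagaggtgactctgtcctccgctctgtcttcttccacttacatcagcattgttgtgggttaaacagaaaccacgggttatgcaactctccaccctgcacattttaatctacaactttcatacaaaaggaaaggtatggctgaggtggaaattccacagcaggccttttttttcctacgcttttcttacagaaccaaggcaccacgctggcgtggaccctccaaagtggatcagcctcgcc
Ctsd: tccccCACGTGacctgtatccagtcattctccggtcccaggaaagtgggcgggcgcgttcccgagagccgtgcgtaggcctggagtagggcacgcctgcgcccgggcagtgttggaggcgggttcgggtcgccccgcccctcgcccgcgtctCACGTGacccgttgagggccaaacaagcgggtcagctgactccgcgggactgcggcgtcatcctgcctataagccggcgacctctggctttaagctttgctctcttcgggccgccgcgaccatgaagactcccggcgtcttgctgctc
Ctsa: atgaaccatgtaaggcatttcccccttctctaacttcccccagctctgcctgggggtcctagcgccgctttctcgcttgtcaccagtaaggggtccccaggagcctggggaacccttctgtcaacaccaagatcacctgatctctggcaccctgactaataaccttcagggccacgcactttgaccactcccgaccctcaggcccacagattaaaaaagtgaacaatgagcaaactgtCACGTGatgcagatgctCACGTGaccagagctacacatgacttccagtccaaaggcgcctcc
The Ctsd window holds the element at bases 6 and 153, the Ctsa window at bases 239 and 256, the Ctsl window at base 15 and the Ctsf window at base 172, counted from the window's 5′ end. The windows of Ctsz, Ctsc, Ctsk and Ctss do not hold these letters. A match is a description of the letters only, and binding was not measured.

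Ctsz encodes cathepsin Z (also called X), a cysteine carboxypeptidase with an integrin-binding motif in its precursor. Its signal was 19360.5, 17245 and 17244 on HML2 arrays 1, 2 and 3, against 15965, 13598 and 13253 on parental arrays 1, 2 and 3. The lowest HML2 array lay above the highest parental array. The groups averaged 17949.9 ± 1222 in HML2 and 14272 ± 1477 in parental cells (SD, n = 3 each), and the log2 difference was 0.33 (SE 0.10, 95% confidence interval 0.10 to 0.57, limma adjusted p = 0.043). Among all tested genes 20.6% had the HML2 arrays entirely above the parental ones and 23.8% entirely below, 44.4% in all. The other Ctsz probe sets pointed the same way. Probe set 1417869_s_at gave 7115, 5412 and 5963 in HML2 and 5403, 3902 and 4236 in parental cells, a log2 difference of 0.45 (adjusted p = 0.063 over all probe sets). Probe set 1417870_x_at gave 7214, 5351 and 4974 in HML2 and 4717, 3711 and 3787 in parental cells, a log2 difference of 0.51 (adjusted p = 0.051). On both, the groups did not overlap, and neither passed the threshold. The difference of the main probe set is small, and its adjusted p lay above 0.05 under quantile normalization (log2 difference 0.26, adjusted p = 0.11), without the signal filter (adjusted p = 0.11), without the intensity trend (adjusted p = 0.10), and without any of the arrays other than parental replicate 1 (adjusted p from 0.074 to 0.16). Without parental replicate 1 it was 0.031, and the log2 difference over these exclusions ran from 0.28 to 0.42.

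The tested genes with a pattern most like that of Ctsz over the 6 arrays, by Pearson's r of log2 values, were Pias2 (r = 0.994), Daxx (r = 0.994) and Lrig2 (r = 0.993). Ctsz was chosen for this as the called member with the largest increase, so these correlations describe the 6 arrays and share the group difference. Daxx, a histone chaperone and death domain binding protein, was higher in HML2 (log2 difference 0.53, adjusted p = 0.038), a call lost without HML2 replicate 2 or 3 or parental replicate 2 or 3 (0.078 to 0.15). Pias2, a SUMO ligase, had a log2 difference of 0.32 (adjusted p = 0.13), which turned to -0.31 with the mean over its probe sets, and Lrig2, a membrane protein with leucine-rich repeats, one of 0.56 (adjusted p = 0.057, and 0.028 with the replicate block).

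Ctsl encodes the cysteine endopeptidase cathepsin L. Its signal was 23557, 25239.5 and 20309.8 on HML2 arrays 1, 2 and 3, against 21640.3, 18863 and 18779 on parental arrays 1, 2 and 3. HML2 array 3 lay below parental array 1, so the groups overlapped, with means of 23036 ± 2506 in HML2 and 19761 ± 1628 in parental cells (SD, n = 3 each). The log2 difference was 0.22 (SE 0.11, 95% interval -0.02 to 0.46, limma adjusted p = 0.16). Matched by number, HML2 exceeded parental by 0.12, 0.42 and 0.11 on the log2 scale, and with the replicate block Ctsl was called higher (95% interval 0.06 to 0.38, adjusted p = 0.042). A dimmer Ctsl probe set, 1457724_at, had the other sign. It gave 302, 252 and 261 in HML2 and 500.5, 301 and 299.9 in parental cells (log2 difference -0.34, adjusted p = 0.26), and the mean over both probe sets was -0.06.

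Ctsd encodes the aspartic endopeptidase cathepsin D. Its signal was 2139.9, 1559.8 and 1360.2 on HML2 arrays 1, 2 and 3, against 3558, 1703 and 2036 on parental arrays 1, 2 and 3. Parental array 1 was the highest of the 6, and HML2 array 1 lay above parental arrays 2 and 3. The means were 1687 ± 405 in HML2 and 2432 ± 989 in parental cells (SD, n = 3 each), and the log2 difference was -0.47 (SE 0.27, 95% interval -1.09 to 0.15, limma adjusted p = 0.23). Within each number HML2 was the lower array, by -0.72, -0.12 and -0.56 on the log2 scale, and with the replicate block Ctsd was called lower (95% interval -0.79 to -0.15, adjusted p = 0.032). Without parental replicate 1 the log2 difference was -0.16.

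Ctsb encodes cathepsin B, a cysteine protease that acts as an endopeptidase and a dipeptidyl carboxypeptidase. Its signal was 6884, 4837 and 4755 on HML2 arrays 1, 2 and 3, against 7182, 4156 and 4804 on parental arrays 1, 2 and 3. Array 1 was the highest of its group in both cell populations. The means were 5492 ± 1206 in HML2 and 5381 ± 1593 in parental cells (SD, n = 3 each), with a log2 difference of 0.05 (SE 0.22, limma adjusted p = 0.90). Its 95% interval of -0.45 to 0.55 does not show that the cells are alike. The sign was negative when HML2 replicate 1, parental replicate 2 or parental replicate 3 was left out.

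Ctsb had 5 tested probe sets, and they did not give the same answer. Probe set 1417491_at gave 275, 144 and 228 in HML2 and 1011, 378 and 454 in parental cells, all HML2 arrays being below all parental ones. Its log2 difference of -1.24 (SE 0.34) passed the test over all 16412 probe sets above the filter (limma adjusted p = 0.027), of which 11.3% were called higher and 14.1% lower, 25.4% in all. Probe set 1417492_at gave 533, 278 and 304 in HML2 and 987, 419 and 611 in parental cells, with overlapping groups (log2 difference -0.75, adjusted p = 0.11). Probe set 1444987_at had a log2 difference of -0.22 (adjusted p = 0.38). In contrast, probe set 1448732_at gave 2106, 1349 and 1208 in HML2 and 2024, 1116 and 1135 in parental cells, with a log2 difference of 0.14 (adjusted p = 0.75). Averaged over the probe sets the log2 difference of Ctsb was -0.41. The array annotation used here does not say which transcript ends these probe sets read, and the part of probe position in the disagreement was not tested.

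Ctsa encodes cathepsin A, a serine carboxypeptidase that also protects the lysosomal sialidase Neu1 and the beta-galactosidase Glb1. Its signal was 2071, 1904 and 1910.0 on HML2 arrays 1, 2 and 3, against 2668, 1523 and 1792 on parental arrays 1, 2 and 3. The HML2 arrays lay within the range of the parental arrays. The means were 1961 ± 94.7 in HML2 and 1994 ± 598 in parental cells (SD, n = 3 each), and the log2 difference was 0.01 (SE 0.19, 95% interval -0.43 to 0.46, limma adjusted p = 0.96). The sign was negative without HML2 replicate 1, parental replicate 2 or parental replicate 3. Neu1 and Glb1 had log2 differences of -0.19 (adjusted p = 0.56) and -0.03 (adjusted p = 0.92).

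**Figure D2:**
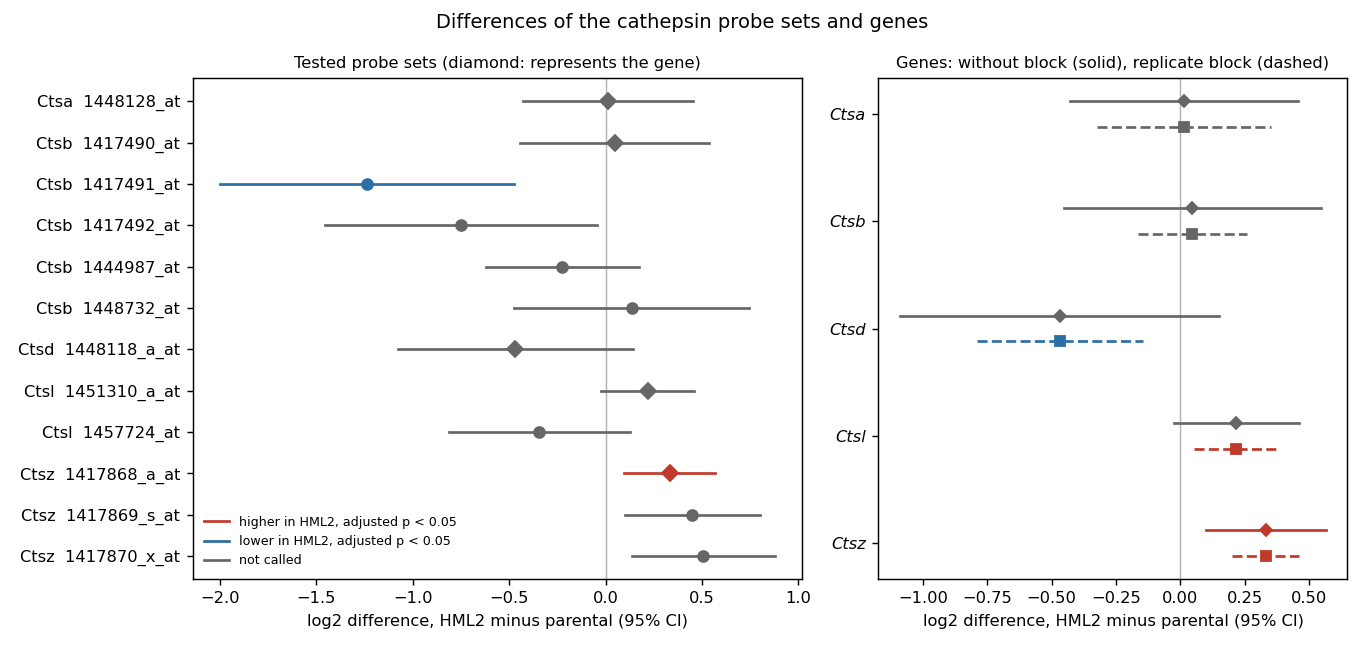
Log2 difference, HML2 minus parental, with 95% confidence intervals, for the 12 tested cathepsin probe sets (left) and for the 5 tested genes without and with the replicate block (right). The Ctsz probe sets lie between 0.33 and 0.51, the Ctsb probe sets spread between -1.24 and 0.14, and the block narrows the intervals of Ctsd and Ctsl so that they leave out 0.

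The spread within the groups followed the replicate number for several cathepsins. On HML2 array 1, Ctsb exceeded the mean of arrays 2 and 3 by 0.52 on the log2 scale, and parental array 1 exceeded its own group's others by 0.68. For Ctsd these values were 0.54 in HML2 and 0.92 in parental cells. Ctsl and Ctsz showed smaller ones, 0.06 and 0.17 in HML2 and 0.20 and 0.25 in parental cells, and Ctsa gave 0.12 in HML2 and 0.67 in parental cells. Array 1 thus lay above the mean of arrays 2 and 3 in both groups for all 5 tested cathepsins, although HML2 array 2 was the highest of its group for Ctsl. The median excess was 0.17 in HML2 and 0.67 in parental cells for the cathepsins, against 0.01 and 0.02 for all tested genes. Lysosomal hydrolases other than cathepsins moved in the same direction, with medians of 0.42 in HML2 and 0.52 in parental cells, and array 1 exceeded the mean of arrays 2 and 3 for 26 of 29 genes in HML2 and 23 of 29 in parental cells. The labels do not say what the number marks, and its part in the cathepsin differences was not tested beyond the block.

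**Figure D3:**
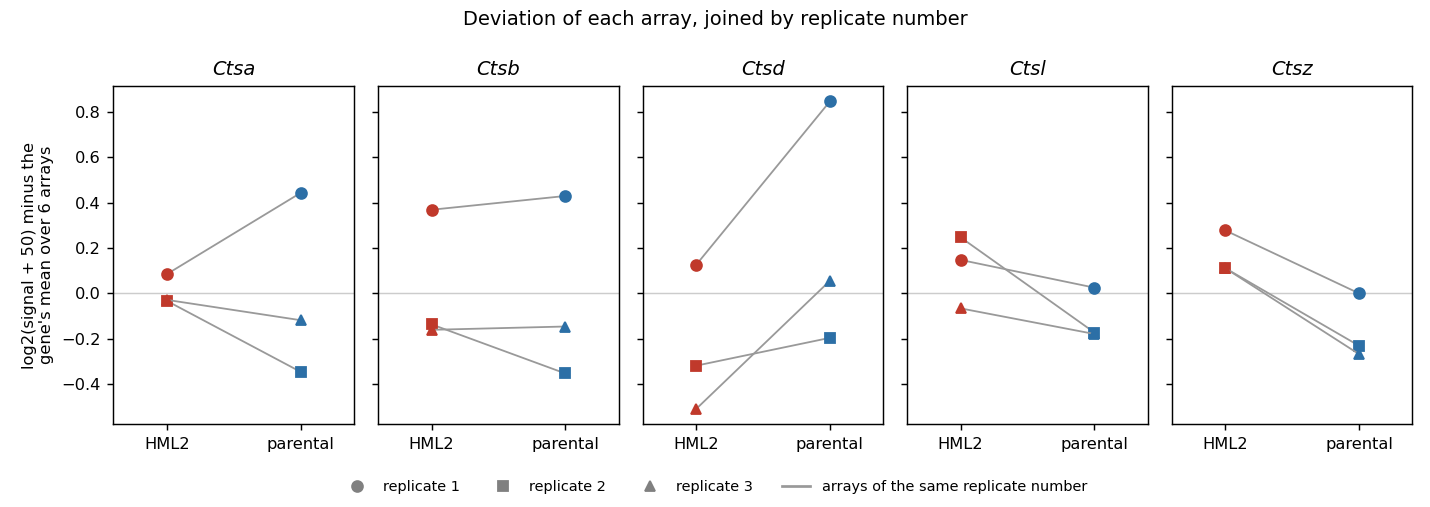
Deviation of each array from the gene's mean over 6 arrays, in log2(signal + 50), for the 5 tested cathepsins, HML2 left and parental right, with lines joining arrays of the same replicate number. Replicate 1 lies above the mean of replicates 2 and 3 in both groups for every panel; all 3 lines of Ctsz are higher at HML2 and all 3 lines of Ctsd are lower there.

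The remaining members were dim. Background was gauged from 3 bacterial trp control probe sets, which have no match in mouse RNA and read 1.97 to 36.2 (median 11.3). Ctss, which degrades the invariant chain in antigen-presenting cells, had a signal of 5.18, 3.39 and 13.7 on the HML2 arrays, against 37.2, 34.1 and 29.8 on the parental arrays. The HML2 arrays were all lower, the HML2 values lie within the control range, and the parental values lie near its upper end, with array 1 just above it. When genes below the signal filter were tested too, Ctss was called lower (log2 difference -0.55, limma adjusted p = 0.035). Ctsk, the collagen-degrading cathepsin of osteoclasts, gave 14.4, 46.7 and 41.8 in HML2 and 55.0, 51.7 and 47.8 in parental cells. Its groups did not overlap either, by a margin of 46.7 in HML2 against 47.8 in parental cells, and without the filter it was not called (log2 difference -0.29).

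Ctsh, an aminopeptidase, gave 143, 53.1 and 55.3 in HML2 and 68.8, 20.5 and 84.8 in parental cells, with overlapping groups and a mean below the filter. Ctsc, which activates granule serine proteases of leukocytes, gave 7.33, 49.9 and 25.7 in HML2 and 1.66, 2.36 and 29.4 in parental cells. Both groups of Ctsc have arrays within the control range. Ctsf, a cysteine protease, gave 5.62, 28.5 and 34.6 in HML2 and 33.4, 5.31 and 4.50 in parental cells, all within that range. Tested without the filter, Ctsh, Ctsc and Ctsf had log2 differences of 0.30, 0.34 and 0.18, and none was called.

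Ctss and Ctsk are adjacent on mouse chromosome 3. The nearest tested genes on either side of the pair, Arnt and Golph3l, had log2 differences of -0.46 (limma adjusted p = 0.12) and -0.49 (adjusted p = 0.16), and neither was called. Of the 10 nearest tested neighbours of the pair, 2 were called higher and 1 lower, with a median log2 difference of -0.08. Around Ctsz 1 of 10 neighbours was called higher and 1 lower, with a median of -0.05. Around Ctsd 2 were higher and 0 lower, with a median of -0.20. Around Ctsl 0 were higher and 1 lower, with a median of -0.05. Over all tested genes 12.3% were called higher and 14.9% lower, with a median of -0.02.

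Of 13 cathepsins outside the 10, 1 had a signal that allowed a test. Ctso, a cysteine protease, gave 146, 71.5 and 64.6 in HML2 and 309.9, 166 and 234 in parental cells. All HML2 arrays were below all parental arrays. The HML2 mean of 94.0 was under the filter of 100, which Ctso passed through its parental arrays, and Ctso was called lower in HML2 (log2 difference -1.01, SE 0.27, limma adjusted p = 0.027). The call was lost without the signal filter (adjusted p = 0.061) and without HML2 replicate 2 or 3 or parental replicate 1 or 3 (0.076 to 0.092).

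Inhibitors of cysteine cathepsins and related genes were listed as 21 genes, of which 6 were tested. Where 12.3% of all tested genes were called higher and 14.9% lower, 0 of these 6 were called higher and 2 lower. Both belong to the Ctla2 genes, which resemble a cathepsin propeptide, and Ctla2a is known in mice to inhibit cathepsin L. Ctla2a gave 28.9, 2.11 and 6.53 in HML2 and 218, 472 and 310.0 in parental cells, a log2 difference of -2.59 (SE 0.28, limma adjusted p = 0.00056). Ctla2b gave 28.2, 19.5 and 25.6 in HML2 and 215, 224 and 197 in parental cells, a log2 difference of -1.81 (SE 0.18, adjusted p = 0.00035). HML2 signals of both lay within the range of the trp controls, so both genes passed the filter through their parental arrays, and the size of their differences is set by the offset. With offsets of 16 and 100 it was -3.66 and -1.91 for Ctla2a and -2.50 and -1.32 for Ctla2b. With all genes tested regardless of signal, both were called lower (adjusted p = 0.0015 for Ctla2a and 0.00099 for Ctla2b). The bright genes of the list differed less. Cstb, the cytosolic stefin B, had a log2 difference of 0.31 (adjusted p = 0.063, and 0.011 with the replicate block). Serpinb6a, a cytosolic serpin in the list, had one of 0.24 (0.11, and 0.032 with the block). That Serpinb6a inhibits cysteine cathepsins is not shown by these data. Cst3, the secreted cystatin C, had a log2 difference of -0.37 (0.054, and 0.017 with the block). With the block 2 genes of this list were thus called higher and 3 lower. The block called 17.8% of all tested genes higher and 19.6% lower. Stfa2l1, a stefin A family gene below the filter, gave 28.4, 85.8 and 84.6 in HML2 and 9.78, 3.71 and 3.54 in parental cells. Tested without the filter, Stfa2l1 was called higher (log2 difference 1.02, limma adjusted p = 0.024), with its parental signals within the trp range. Stefin genes are near-identical copies in mice, so its probe set may read more than this gene.

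Of 17 genes for cathepsin maturation and sorting, 16 were tested, with 1 called higher and 3 lower and a median log2 difference of 0.03. All tested genes gave 12.3% higher, 14.9% lower and a median of -0.02. Without HML2 replicate 1, 4 sorting genes were called higher. Leaving out single arrays called 590 to 1577 of all tested genes higher. The receptors that carry mannose 6-phosphate tagged cathepsins went in opposite directions. M6pr, the cation-dependent receptor, gave 6166, 6208 and 6055 in HML2 and 3697, 4472 and 4399 in parental cells (log2 difference 0.55, SE 0.11, limma adjusted p = 0.0077). Igf2r, the cation-independent receptor, gave 301, 218 and 225 in HML2 and 862, 515 and 607 in parental cells (log2 difference -1.24, SE 0.21, adjusted p = 0.0038). Groups did not overlap for either, and a further probe set of each was called in the same direction, at 0.80 for M6pr and -1.15 for Igf2r. Gga2, an adaptor that loads these receptors into vesicles, gave 826, 889.7 and 879 in HML2 and 2109, 1604 and 1545 in parental cells (log2 difference -0.97, adjusted p = 0.0026).

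Scarb2, the receptor that carries glucocerebrosidase, was called lower (log2 difference -0.38, limma adjusted p = 0.044), but its other probe set stood at 0.36 (adjusted p = 0.090), and with an array left out the call was kept only without HML2 replicate 1 (adjusted p from 0.089 to 0.16 without another). Lgmn, the asparaginyl endopeptidase that trims cathepsin precursors, gave 807, 232 and 326 in HML2 and 302, 118 and 121 in parental cells. Array 1 was the highest in both groups. Its log2 difference of 1.06 had an adjusted p of 0.11, and of 0.0027 with the replicate block. Gnptab, which builds the mannose 6-phosphate tag, had a log2 difference of 0.36 (0.055, and 0.038 with the block). With the block 3 sorting genes were called higher and 4 lower, where 17.8% of all tested genes were called higher and 19.6% lower. Psap, the saposin precursor, had a log2 difference of -0.52 (0.086, and 0.0025 with the block). Grn and Vps35, the brightest others, had log2 differences of -0.10 (0.59) and 0.03 (0.87).

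**Figure D4:**
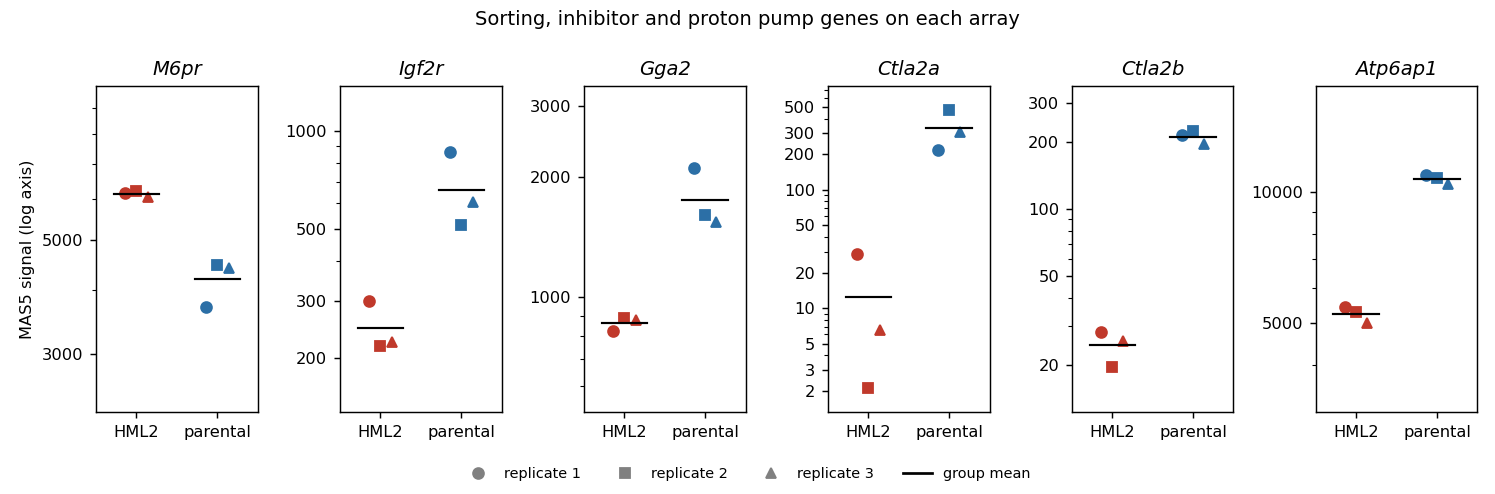
MAS5 signal (log axes, with a scale for each panel) of sorting, inhibitor and proton pump genes on each array, HML2 left and parental right, with marker shapes for replicates 1 to 3 and a bar at the group mean. M6pr is higher in HML2, while Igf2r, Gga2, Ctla2a and Atp6ap1 are lower, with no overlap between groups.

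Other lysosomal hydrolases were tested for 29 of 38 listed genes. Of these, 0 were called higher and 6 lower, with a median log2 difference of -0.11. For all tested genes the shares were 12.3% and 14.9% and the median -0.02. With the replicate block the shares were 17.8% and 19.6%. Lipa, the acid lipase, gave 450.3, 265 and 302 in HML2 and 1728, 831 and 979.7 in parental cells (log2 difference -1.62, limma adjusted p = 0.0041), and its other probe sets gave -1.76 and -2.03. Smpd1, the acid sphingomyelinase, had a log2 difference of -1.37 (adjusted p = 0.0015), though another probe set gave -0.27 and was not called. Sgsh (-0.75), Dnase2a (-0.73), Ids (-0.66) and Aga (-0.56) were the other 4 called lower. With the mean over probe sets Ids was not called (log2 difference -0.25, adjusted p = 0.20). Without HML2 replicate 3, parental replicate 1 or parental replicate 3 the hydrolases called lower were 3: Sgsh, Dnase2a and Aga lost the call each time. Leaving out single arrays called 795 to 1845 of all tested genes lower. Manba, a beta-mannosidase, had a log2 difference of 1.09 (adjusted p = 0.055, and 0.0024 with the replicate block), and 2 hydrolases were called higher and 8 lower with the block. Asah1 and Npc2, the brightest others, had log2 differences of -0.06 (adjusted p = 0.76) and 0.11 (0.69). Further Npc2 probe sets gave 0.15 (adjusted p = 0.69 over all probe sets) and -0.94 (0.044). The cathepsins and these hydrolases were not tested against each other.

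Among 15 tested genes of the lysosomal membrane, 1 was called higher and 2 lower. The shares of all tested genes were 12.3% higher and 14.9% lower, and 17.8% and 19.6% with the replicate block. Laptm5 gave 1184, 1078 and 1309.6 in HML2 and 308, 236 and 389 in parental cells (log2 difference 1.80, limma adjusted p = 0.00039), while its relatives Laptm4b (-0.89, adjusted p = 0.00072) and Laptm4a (-0.78, adjusted p = 0.0010) were lower. Lamp1 and Lamp2, the abundant membrane glycoproteins, had log2 differences of -0.23 (0.20) and -0.54 (0.12, and 0.016 with the replicate block). Of 16 tested genes of the proton pump that acidifies the lysosome, 0 were called higher and 1 lower. That gene, Atp6ap1, an accessory subunit, gave 5436, 5291 and 4985 in HML2 and 10947, 10770.3 and 10407 in parental cells (log2 difference -1.03, SE 0.09, adjusted p = 0.00020). With the block 2 membrane genes were called higher and 4 lower, and 1 pump gene higher and 3 lower. Without HML2 replicate 1, parental replicate 2 or parental replicate 3, 2 pump genes were called lower. Over such exclusions 795 to 1845 of all tested genes were called lower. Atp6v1c1 and Atp6v1g1, the brightest other pump genes, had log2 differences of 0.07 (adjusted p = 0.63) and 0.03 (0.92).

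Of 13 tested genes of the TFEB family and its nutrient control, 1 was called higher and 1 lower, with a median log2 difference of 0.05. All tested genes gave 12.3% higher, 14.9% lower and a median of -0.02. The called genes were Lamtor3 (0.34, limma adjusted p = 0.049) and Lamtor4 (-0.66, adjusted p = 0.037), subunits of the Ragulator complex on the lysosome. Lamtor3 was no longer called when any array except HML2 replicate 1 was left out (adjusted p from 0.096 to 0.18), and Lamtor4 was not called without HML2 replicate 2 or 3 or parental replicate 1 or 2 (0.070 to 0.10). Tfe3 and Mitf, relatives of TFEB, had log2 differences of 0.26 and 0.09 and were not called, and Tfeb was below the filter. Lamtor1 and Rragc, the brightest others, had log2 differences of -0.14 (adjusted p = 0.37) and -0.02 (0.93). With the replicate block 3 genes were called higher and 1 lower, where 17.8% of all tested genes were called higher and 19.6% lower.

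**Figure D5:**
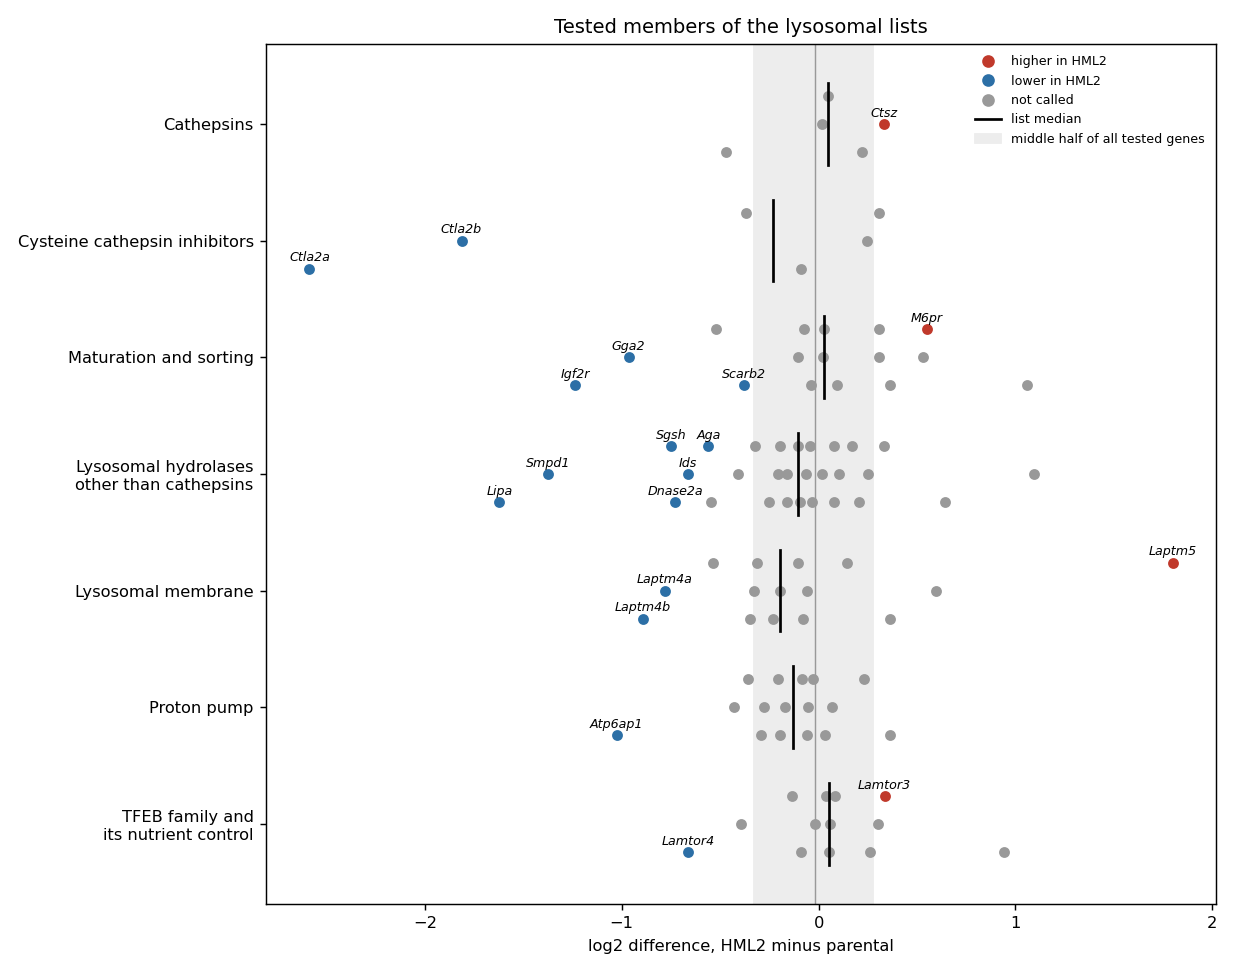
Log2 difference, HML2 minus parental, of each tested gene in the cathepsins and the related lists, coloured by call. The list of other cathepsins is not drawn. A bar marks each list's median and a grey band the middle of the distribution of all tested genes. The 5 cathepsins lie between -0.47 and 0.33, while the inhibitors reach -2.59, a value that depends on the offset, and the membrane genes 1.80.

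The labelled mammary tumour origin was checked against epithelial markers. Krt8, a keratin of simple epithelia, gave 3592, 4875 and 4057 in HML2 and 1034, 1098 and 1154 in parental cells, while Epcam gave 82.8, 68.9 and 98.9 in HML2 and 134, 108 and 157 in parental cells. Cdh1 was near background, at 3.76 to 45.1 in HML2 and 5.04 to 32.2 in parental cells. Krt18 averaged 86.0 in HML2 and 34.2 in parental cells, Krt19 4.56 and 11.6, and Krt7 6.23 and 37.1. Of the 6 listed epithelial markers 4 did not reach the filter. Macrophages and other leukocytes express many cathepsins, and 12 of their 13 listed markers had a probe set. Their summed signal ran from 931 to 1059 in HML2 and from 725 to 898 in parental cells. Sums of this kind follow their brightest probe set, here Cd14, which averaged 498 in HML2 and 236 in parental cells. The direction of the sum is therefore not that of the markers as a set. Of the 12 markers, 4 stayed within the range of the trp controls on all arrays. Ptprc, which defines leukocytes, gave 4.53, 19.8 and 1.78 in HML2 and 0.994, 1.79 and 12.9 in parental cells. Among the 3 tested, Cd14 was higher (log2 difference 0.97, limma adjusted p = 0.010) and Lyz2 lower (-0.91, adjusted p = 0.0074), Lyz2 having passed the filter through its parental arrays (mean 78.9 in HML2 and 192 in parental cells). No osteoclast marker of the 5 listed reached the filter, and Acp5 gave 112, 137 and 112 in HML2 and 58.8, 59.4 and 35.2 in parental cells. Osteoclast markers summed to 169.8 to 193 in HML2 and 96.3 to 120.3 in parental cells. This sum, too, follows its brightest probe set, that of Acp5, which averaged 120 in HML2 and 51.2 in parental cells. Of the 5 markers, 3 stayed within the trp range on all arrays. Tested without the filter, Acp5 was called higher (log2 difference 0.76, limma adjusted p = 0.048). Fibroblast markers summed to 1235 to 2181 in HML2 and 2599.7 to 4603 in parental cells over 8 genes, of which Pdgfra was lower (log2 difference -1.09, adjusted p = 0.0052) and Pdgfrb stood at -1.18 (0.053, and 0.0020 with the replicate block). The fibroblast markers Dcn, Lum, Fap and Thy1 averaged 29.4 or less in either group. Endothelial markers summed to 252 to 357 in HML2 and 79.2 to 167 in parental cells over 5 genes. None reached the filter, and Pecam1 stayed within the trp range. Icam2, the brightest of them in HML2, gave 94.1, 228 and 208 in HML2 and 5.99, 5.13 and 8.05 in parental cells. Cdh5 averaged 55.1 in HML2 and 19.5 in parental cells, and Kdr 53.5 and 68.6, so the sum does not give the direction of every marker. Lung epithelial markers summed to 166 to 295 in HML2 and 187 to 279.6 in parental cells over 6 genes, and 0 were called. The part of these cell types in the cathepsin differences was not tested. Ratios of 3' to 5' control signals ran from 0.770 to 0.816 in HML2 and 0.799 to 0.803 in parental cells for Gapdh, and from 1.36 to 1.39 in HML2 and 1.41 to 1.53 in parental cells for beta-actin. Between 39.7% and 41.6% of probe sets per array had a signal of at least 100, and the number of arrays limits the precision.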

How the data were processed

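RNA of 3 E0771-HML2 and 3 parental E0771 cultures was measured on 1 array each. The deposited intensities are linear MAS5 signals, per the submitters' processing notes, which name no version or settings. On each array the mean without the lowest and highest 2% was 500, so a difference in total messenger RNA is removed. The table holds 45101 probe sets, of which 64 are controls. The annotation, from 2016, names 1 gene for 34945 and several for 932, and 34741 of the former were matched to RefSeq (GRCm38.p6).

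Signals became log2(signal + 50), which understates changes of low signals. Those averaging 100 or more over the arrays were kept, the brightest per gene was used, and limma 3.58.1 in R 4.3.3 (lmFit, eBayes with trend, no covariates) compared HML2 with parental, adjusted over 9361 genes. On simulated data for this comparison, 68 of 100 genes changed by 1 log2 unit and 90 of 100 changed by 2 were recovered over 9361 genes, with 5 false calls. The simulation used independent noise for each array and far fewer changed genes than were called here. Its recovery and false calls may therefore differ from those in the data. Alternatives were offsets of 16 and 100, no filter or one of 200, quantile normalization, median centring, a replicate block, no trend, array weights, the mean over probe sets, and leaving out each array.

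Same-numbered arrays had correlations of deviations from the group means of 0.45, 0.34 and 0.24, all above the bound of 0.1. The numbers were therefore taken to pair the arrays. HML2 replicate 3 correlated slightly more with parental replicate 2 (0.241) than with parental replicate 3 (0.239). The main test does not use the pairing, and results with the replicate block are given beside it. The pairing comes from the numbers in the labels, which do not say what they mark.

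The members, lists and tests were chosen with earlier results of these data known. Named genes are the members, per list up to 4 called genes with the largest differences and up to 2 brightest others, and 3 genes most like Ctsz. Lgmn, Psap, Gnptab, Cst3, Neu1, Glb1, Ids, Aga, Manba, Tfe3, Mitf, Stfa2l1, Acp5 and the marker genes were named after their values were seen.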

Additional observations from a re-analysis of the deposited data

How the results depend on the processing

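Under the 16 alternatives Ctsz was positive in all, and 7 kept the count of 1 cathepsin called higher; 0 were called higher without the signal filter, under quantile normalization and without the intensity trend. Ctsd was negative in all 16 and called under the replicate block and array weights. Without the filter 1 cathepsin (Ctss) was called lower, and with the replicate block 2 were called higher and 1 lower. Array weights gave 1 lower (Ctsd), and called 2422 genes higher and 2631 lower of all tested. Leaving out each array gave 0 to 1 cathepsins called higher, and 590 to 1577 genes higher and 795 to 1845 lower of all tested, with the lowest counts without parental replicate 3.

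Calls over all genes changed with the setting too, from 1155 higher and 1395 lower as reported. Alternatives other than leaving out an array called 923 to 2422 of the genes they tested higher and 1178 to 2631 lower. The list counts are to be read beside these. For the other lists, without the filter 0 other cathepsins were called lower, and 1 inhibitor was called higher (Stfa2l1). Without it 1 hydrolase was called higher (Acp5) and 3 lower, and 0 TFEB family genes either way. Quantile normalization gave 1 hydrolase and 0 TFEB family genes higher. The replicate block gave 2 inhibitors, 3 sorting genes, 2 hydrolases, 2 membrane genes, 1 pump gene and 3 TFEB family genes higher, and 4 membrane and 3 pump genes lower. Without the trend 2 sorting genes and 0 TFEB family genes were higher. Array weights gave 1 inhibitor, 5 sorting genes, 3 hydrolases, 2 membrane genes, 1 pump gene and 2 TFEB family genes higher, and 7 membrane, 4 pump and 2 TFEB family genes lower. A filter of 200 gave 0 other cathepsins and 0 inhibitors lower, because Ctso, Ctla2a and Ctla2b averaged below 200 and were not tested. Median centring gave 1 inhibitor, 2 sorting genes, 1 hydrolase, 2 membrane genes and 1 pump gene higher. The mean over probe sets gave 2 pump and 2 TFEB family genes lower, and the offset of 16 gave 0 TFEB family genes higher. Leaving out each array gave 0 to 1 other cathepsins lower, 1 to 4 sorting genes higher, 0 to 1 hydrolases higher and 3 to 9 lower, 1 to 2 pump genes lower, and 0 to 1 TFEB family genes in either direction.

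Some log2 differences changed sign, among them Pias2 and Ctsl, whose values as reported were 0.32 and 0.22. Quantile normalization gave -0.0167 for Ctsb, -0.0558 for Vps35 and -0.0407 for Atp6v1g1. Array weights gave -0.0310 for Ctsb, -0.00371 for Vps35, -0.0613 for Atp6v1g1, 0.0333 for Rragc and -0.19 for Mitf. Median centring gave 0.0401 for Rragc and 0.0253 for Glb1. The mean over probe sets gave -0.41 for Ctsb, -0.0624 for Ctsl, -0.0156 for Vps35, -0.23 for Npc2 and -0.31 for Pias2. Leaving out each array, values ran from -0.15 to 0.24 for Ctsa, -0.13 to 0.27 for Ctsb, -0.0193 to 0.0776 for Vps35, -0.15 to 0.0743 for Asah1, -0.0438 to 0.26 for Npc2, -0.13 to 0.18 for Atp6v1g1, -0.14 to 0.13 for Rragc, -0.39 to 0.0307 for Neu1, -0.21 to 0.16 for Glb1 and -0.28 to 0.30 for Mitf. Of 716 values for 45 genes outside the cathepsins, 596 kept their direction and call, 53 lost the call, 43 gained it and 24 changed sign. The causes of these changes were not tested. Ctsc, Ctsf, Ctsk and Ctss have signals near background, so their differences are limited by signal.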
